A study of Mus musculus with 8 samples.

Results

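The solute carrier genes other than the glucose transporters of family Slc2a were examined in C2C12 muscle cells, an established mouse myoblast line whose cells fuse into myotubes when serum is withdrawn. A probe was a member where the platform annotation gave it 1 gene, where that gene's symbol began with Slc and a family number other than Slc2a, and where at least 3 of 4 Neo arrays and at least 3 of 4 HDAC4 arrays had a value. This gave 165 probes of 143 genes, out of 339 such Slc probes (276 genes) and of 31769 probes on the array. Of the other Slc probes, 91 lacked a value on all arrays and 83 had some values but too few. A symbol beginning with Slc does not make every member a transporter. Slc4a1ap encodes an adaptor protein, Slc9a3r1 and Slc9a3r2 encode scaffold proteins that bind a sodium-proton exchanger, and Slc39a1-ps is a pseudogene.

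Both groups consisted of C2C12 cells that had been infected with a retrovirus and stably selected. The 4 Neo samples carried a retrovirus encoding Neo alone, and the 4 HDAC4 samples carried one encoding HDAC4 together with Neo, so infection and selection were shared by both groups. HDAC4, a histone deacetylase of class IIa, represses genes by binding transcription factors of the MEF2 family. The cells were grown to 90% confluence, kept in 2% horse serum for 4 days and lysed, and 10 µg of RNA was DNase treated. The labels do not say whether the selected cells were pooled or clonal, which promoter drove HDAC4, or whether the 4 samples of each group were separate cultures. What the p-values measure is therefore the spread among these 8 samples, and that spread may be technical.

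Each array held RNA of the cells labelled with Cy5 and a common murine reference RNA labelled with Cy3, whose source the label protocol gives as liver. The deposited value is the log2 ratio of the colours, so a value of 1 is a 2-fold difference. Its direction is not stated beyond the dyes. It was read as cells over reference because skeletal muscle genes lay far above 0, which makes the direction likely and not certain. With the opposite direction every sign below would turn, and so would each order of ratios and each pair of shares above and below 0. Every level below is such a ratio, centred on each array's median, and says how a gene stood against the reference and not how abundant its RNA was. In RNA of whole cultures, fewer cells of a type and less RNA per cell cannot be told apart.

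Solute carriers move ions, metabolites and nutrients across membranes, driven by ion gradients or by exchange of one substrate for another, and are numbered by family according to sequence. In muscle they supply creatine, taurine, amino acids and carnitine, export lactate, set cell pH and chloride, and carry metabolites and adenine nucleotides across the inner mitochondrial membrane. The sodium pump maintains the gradient on which many of them depend.

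Between 17014 and 22193 probes had a value on an array, and between 152 and 164 of the members did. Skeletal muscle markers were measured through 18 of 19 probes, with array medians of 7.49 to 8.13 in Neo and 6.90 to 7.65 in HDAC4. None of 13 liver and none of 6 adipocyte probes had enough values to be compared, and 1 of 4 osteoblast, 1 of 11 endothelial, 2 of 8 leukocyte and 1 of 7 neuron probes did. The array medians of the 2 leukocyte probes, of which 1 had a value on HDAC4 array 2, lay between -5.36 and -4.02, far below the reference. The endothelial (Pecam1) and osteoblast (Alpl) probes also lay below it, with means of -2.40 and -2.92. The neuron probe, for Tubb3, lay far above it, at 2.91 to 4.70 in Neo and 3.29 to 3.79 in HDAC4. No probe was named for Hdac4 itself, so the transgene was not analysed here. The arrays numbered 1 of both groups stood apart from the other 6 and results are given with and without them. Many ratios also appeared to have the reference set to a lowest value of 10 units, called the reference floor. The ratio times 10 was then a whole number within 0.001, and the floor is inferred from the values. Every skeletal muscle probe tested had values at this floor, on all 8 arrays for Ckm, Tnnc2, Myod1 and Mb among others. How far these genes lay above the reference therefore depends on the floor. Probes with every value at the floor were mostly lower in HDAC4, as described below. The lower muscle medians in HDAC4 are thus not read as a difference in muscle genes. Of the liver probes, 7 had no value on any array. Every value of Ttr (1 value), Apoa1 (2 values) and 1 Serpina1a probe (4 values) was at this floor. No value of Hp (mean -0.99, 4 Neo arrays), Trf (-0.85, 2 Neo arrays) or Apoa2 (-0.29, 1 Neo array) was. Whether the reference was liver RNA, as labelled, was not tested.

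Against the reference, the members spread widely. Floor values were counted only at or above 0 before centring, and occurred in 24.8% of members and 17.3% of all probes. They can add to the shares above 0 given next, and how far they do was not tested. On every array with a value, 64 member probes (38.8%) lay above 0 and 40 (24.2%) lay below 0, compared with 32.3% and 33.3% of all 16748 probes tested (read as cells over reference; the shares change places if the ratio runs the other way). In the same reading, under which the highest would otherwise be the lowest, the highest ratios belonged to Slc4a3, the chloride-bicarbonate exchanger AE3 of excitable tissues. Its 3 probes averaged 3.38 ± 0.30, 3.27 ± 0.16 and 2.70 ± 0.61 (SD, n = 8 arrays). The last of these had all 8 values at the reference floor. Next came Slc40a1, the iron exporter ferroportin, at 2.95 ± 0.37, and Slc29a1, the equilibrative nucleoside transporter ENT1, whose highest probe stood at 2.58 ± 0.44. The lowest was Slc16a3, the monocarboxylate transporter MCT4 through which glycolytic cells export lactate, at -3.66 ± 0.34. Slc15a3, a peptide and histidine transporter of lysosomes, averaged -3.45 ± 0.43 over 7 arrays. Slc25a13, a mitochondrial aspartate-glutamate carrier, averaged -3.36 ± 0.40 over 6 arrays. Slc43a3, a nucleobase transporter of family 43, stood at -2.84 ± 0.36, and Slc1a5, the glutamine transporter ASCT2, at -2.68 ± 0.23. Neither end of this order separates neighbours firmly. The means of the 2 highest Slc4a3 probes, and those of Slc16a3 and Slc15a3, lay closer together than their SDs.

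**Figure D1:**
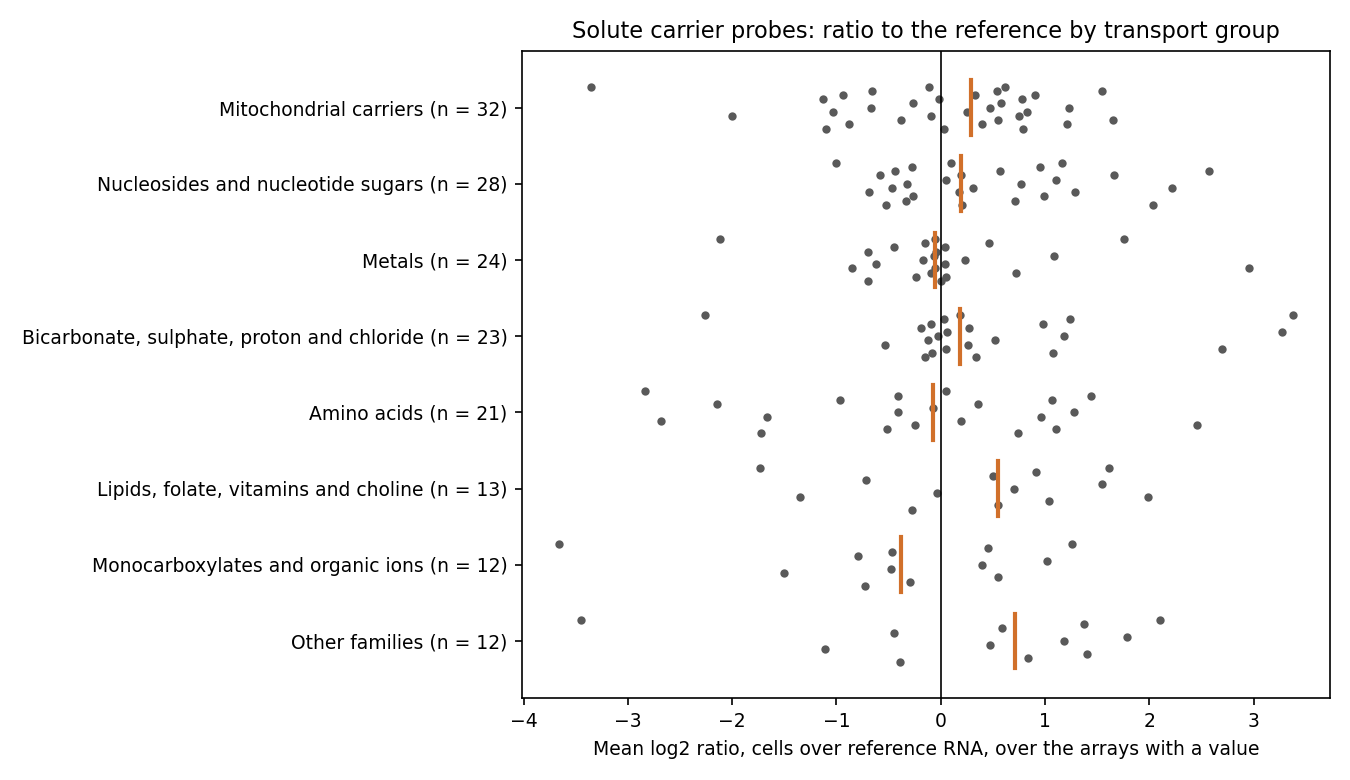
Each point is the mean log2 ratio of cells over reference RNA of 1 member probe over the arrays with a value, on the x axis, in rows by transport group, and the orange line is the group median. Means run from -3.66 (Slc16a3) to 3.38 (Slc4a3), and each larger group has probes on both sides of 0.

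The stretches upstream of Slc4a3 (highest ratio), Slc16a3 (lowest ratio) and Slc41a3 (smallest adjusted p, described below) are shown because MEF2 and the myogenic factors, which bind E-boxes, act at promoters of muscle genes. Each is the 250 bases before the annotated start in RefSeq, build GRCm38.p6, on the plus strand, at chr1:75546212-75546461, chr11:120948817-120949066 and chr6:90618996-90619245. Capitals mark the E-box CANNTG.
Slc4a3: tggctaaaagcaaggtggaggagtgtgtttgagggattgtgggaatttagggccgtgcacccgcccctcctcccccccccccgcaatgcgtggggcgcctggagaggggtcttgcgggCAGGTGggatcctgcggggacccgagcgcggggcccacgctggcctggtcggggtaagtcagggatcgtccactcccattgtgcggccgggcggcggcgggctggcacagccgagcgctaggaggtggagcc
Slc16a3: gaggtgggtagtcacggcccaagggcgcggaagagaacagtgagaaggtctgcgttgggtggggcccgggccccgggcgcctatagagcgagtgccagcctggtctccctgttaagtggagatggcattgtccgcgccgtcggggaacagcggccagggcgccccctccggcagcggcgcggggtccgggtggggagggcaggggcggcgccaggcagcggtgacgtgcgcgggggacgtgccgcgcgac
Slc41a3: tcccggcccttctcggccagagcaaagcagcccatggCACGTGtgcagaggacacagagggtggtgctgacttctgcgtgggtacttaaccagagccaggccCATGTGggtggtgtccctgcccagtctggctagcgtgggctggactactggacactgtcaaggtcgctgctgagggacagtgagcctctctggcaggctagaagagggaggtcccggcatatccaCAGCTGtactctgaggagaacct
The Slc4a3 stretch held 1 E-box, 132 bases before the start, the Slc16a3 stretch held 0, and the Slc41a3 stretch held 3. None of the 3 held the MEF2 motif on either strand. RefSeq promoters were found for 112 of the 143 member genes, 158 in all. An E-box occurred in 61.4% of them and in 66.2% of all 32851 promoters of that length, and a MEF2 motif in 3 of them (1.90%) and in 2.92% of all. Those 3 belong to Slc12a5, Slc38a7 and Slc6a5, with log2 changes between the groups of 0.095, -0.25 and -0.36. A match describes letters in this window and is not evidence of binding.

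The comparison of HDAC4 with Neo asks how a retrovirus expressing HDAC4 alters transcript levels in differentiated C2C12 cells. No solute carrier probe passed an adjusted p of 0.05 (limma, Benjamini-Hochberg adjustment over 16748 probes), against 0.125% of all probes tested. The smallest adjusted p among the members was 0.286, for Slc41a3. At an unadjusted p under 0.05, limma placed 3 members higher in HDAC4 (1.82%, against 2.63% of all probes) and 7 lower (4.24%, against 4.4%). The HDAC4 values all lay above the Neo values for 4 members (2.42%, against 2.07%) and all below for 6 (3.64%, against 3.18%). These shares of the members lay near the shares of all probes.

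The log2 changes, written throughout as HDAC4 minus Neo, were positive for 84 member probes and negative for 81. Their median was 0.00063, and -0.0036 over all probes. The middle of the distribution ran from -0.18 to 0.15 between quartiles, and from -0.15 to 0.14 for all probes. No member changed by more than 1, whereas 162 of all probes (0.967%) did. The 95% interval of the change lay within 1 on both sides of 0 for 137 of 165 members (83.0%), compared with 87.0% of all probes. For those members the intervals exclude a 2-fold change, taken one at a time. For the other 28 they do not.

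**Figure D2:**
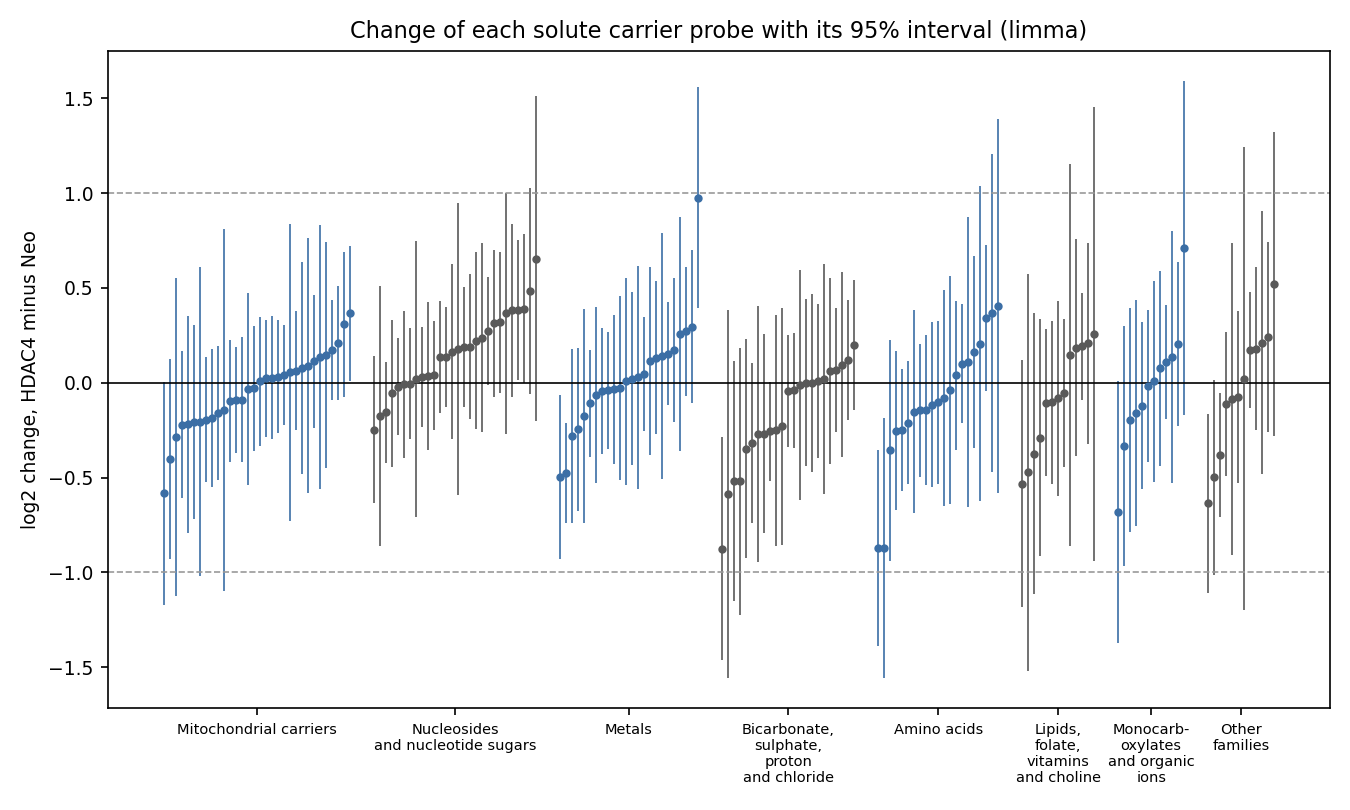
The y axis is the log2 change, HDAC4 minus Neo, of each of the 165 member probes (points) with its 95% interval from limma (lines), ordered within transport groups along the x axis; dashed lines mark a 2-fold change. The changes lie between -0.87 and 0.98, and most intervals cross 0.

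Transport of chloride, bicarbonate, protons and sulphate (families 4, 9, 12 and 26) was measured by 23 probes of 16 genes, of which 9 were higher and 14 lower in HDAC4, with a median change of -0.04. None passed the test. The 3 Slc4a3 probes, at the top of the ratios, differed in the size of their change. Probe M200009231 read 2.47, 3.16, 3.30 and 3.62 on Neo arrays 1 to 4, and 2.23, 1.84, 2.27 and 2.72 on HDAC4 arrays 1 to 4. Its change was -0.87 ± 0.26 (SE), with a limma adjusted p of 0.440 and an exact permutation p of 0.0571, and the groups overlapped through Neo array 1. All 8 of its values were at the reference floor. Probe M300000829 read 3.28, 3.41, 3.47 and 3.43 on Neo arrays 1 to 4, and 3.15, 3.06, 3.24 and 3.12 on HDAC4 arrays 1 to 4. Here every HDAC4 value lay below every Neo value by a small margin, with a change of -0.26 ± 0.12 and a limma adjusted p of 0.724. Probe M300000828 read 3.15, 3.29, 3.48 and 3.58 on Neo arrays 1 to 4, and 3.91, 3.44, 3.20 and 2.96 on HDAC4 arrays 1 to 4. This last probe overlapped fully between the groups, with a change of 0.00063 ± 0.21. Without the arrays numbered 1 the 3 probes gave -1.08, -0.30 and -0.25 in this order, all lower in HDAC4 and none past the limma threshold (smallest adjusted p 0.0775). A difference in Slc4a3 was therefore not established, and a 2-fold fall lies outside the 95% intervals of M300000829 (-0.52 to 0.01) and M300000828 (-0.47 to 0.47) but inside that of M200009231 (-1.46 to -0.29).

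Probes with every value at the reference floor were mostly lower in HDAC4. Of the 206 probes of the whole array with floor values on all 8 arrays, 186 were lower in HDAC4, and the median change over these probes was -0.55. Among the members, the 11 probes with 4 or more floor values had a median change of -0.58, with 9 lower. The 30 members with 1 to 3 floor values had a median of -0.011, and the 124 with none had a median of 0.015. When each array's floor values were shifted by the median deviation of other probes that never left the floor, a choice made after seeing the data, the 11 probes had a median of -0.22 with 7 lower, and the 30 had 0.070 with 12 lower. The shift changed Slc4a3 probe M200009231 from -0.87 to -0.32, Slc1a3 from -0.87 to -0.25, Slc6a17 from -0.87 to -0.63 and Slc22a8 from -0.68 to -0.13. Slc5a5, whose 8 values were all at the floor, had a change of 0.15 and of 0.70 after the shift. A probe at the floor on all 8 arrays moves by the same amount as any other such probe. For Slc5a5, Slc22a8 and Slc4a3 probe M200009231 the size of the move was thus set by the other floor probes. It is not a separate result about each gene. Floor values occurred in 41 members (24.8%) and in 17.3% of all probes.

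In the rest of the ion transport group, the scaffold gene Slc9a3r2 was measured by 3 probes. Their changes were -0.27 ± 0.30, -0.23 ± 0.28 and -0.25 ± 0.27 (SE), each no larger than its error. Slc9a2, a sodium-proton exchanger, averaged 1.33 ± 0.72 (SD, n = 4) in Neo and 0.74 ± 0.66 (n = 3) in HDAC4. Slc12a1, a sodium-potassium-chloride cotransporter best known from kidney, averaged 0.12 ± 0.44 (n = 4) and -0.40 ± 0.40 (n = 3). Its change of -0.52 was -0.12 without the arrays numbered 1, which read 0.65 in Neo and -0.85 in HDAC4. Its relative Slc12a2, the widely expressed cotransporter of that family, had 3 probes near the reference level with changes of 0.02, -0.32 and -0.01, and of -0.24, -0.55 and -0.38 without the arrays numbered 1. Slc4a8, a sodium-driven bicarbonate exchanger, had changes of 0.06 and -0.27, and of 0.04 and -0.56 without those arrays. With all 8 arrays the groups overlapped for every probe in this paragraph. Without the arrays numbered 1 all HDAC4 values lay below all Neo values for Slc9a3r2 probes M200004167 and M300000319. The same held for Slc12a2 probes M200001622 and M300004223 and Slc4a8 probe M300003637, where 14.1% of all probes were apart in that direction. For these last probes missing values left fewer to compare, which makes non-overlap easier to reach. M200001622 had only 0.41 and 0.19 in Neo and 0.13 and -0.02 in HDAC4. In HDAC4, M300004223 had only -0.45 and -0.57, and M300003637 only -0.30 and -0.63.

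Metal transporters (families 11, 30, 31, 39, 40 and 41) were measured by 24 probes of 21 genes, 13 higher and 11 lower in HDAC4, with a median change of 0.01. Slc41a3, of a family of magnesium transporters, had the smallest adjusted p of any member. Its probe M200007299 read 0.22, 0.01, 0.021 and 0.10 on Neo arrays 1 to 4, and -0.35, -0.38, -0.33 and -0.48 on HDAC4 arrays 1 to 4. The Neo values sat at or just above the reference and all HDAC4 values below it, with little scatter in either group. The change was -0.47 ± 0.12 (SE), a ratio 1.39-fold lower, with a limma adjusted p of 0.286 and a permutation test (exact) giving 0.0286, which is the lowest value possible with 4 arrays per group. A second Slc41a3 probe did not show this. It read -0.28, -0.56, 0.21 and -0.014 on Neo arrays 1 to 4, and -0.69, 0.035, -0.029 and -0.077 on HDAC4 arrays 1 to 4, with a change of -0.03 ± 0.22 and wide overlap.

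Slc39a4, the zinc importer ZIP4, had the largest change of any member. It read -1.05, -0.55, -0.96 and -0.35 on Neo arrays 1 to 4, and 0.44, 0.70, 0.32 and -0.46 on HDAC4 arrays 1 to 4. The change was 0.98 ± 0.26, or 1.97-fold, with a limma adjusted p of 0.347 and an exact permutation p of 0.0571. HDAC4 arrays 1 to 3 lay above all Neo arrays, and HDAC4 array 4 fell within the Neo range. No value of this probe was at the floor. Ferroportin, Slc40a1, read 3.04, 3.36, 3.25 and 3.14 on Neo arrays 1 to 4, and 3.17, 2.78, 2.26 and 2.60 on HDAC4 arrays 1 to 4. Its Neo values stood close together, HDAC4 array 1 lay among them and the other HDAC4 arrays lay below them. The change was -0.50 ± 0.19, with a limma adjusted p of 0.639. The remaining metal transporters differed less. Slc11a2, the iron importer DMT1, had changes of 0.01 and 0.03 on 2 probes, Slc39a7, a zinc transporter of the endoplasmic reticulum and Golgi, had 0.17 and 0.27, and Slc30a6, a zinc transporter of the Golgi, had 0.15.

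Amino acid transporters (families 1, 3, 6, 7, 36, 38 and 43) were measured by 21 probes of 20 genes, 8 higher and 13 lower, with a median change of -0.10. Both probes with the most negative changes had non-overlapping groups and values at the floor. Slc1a3, the glutamate transporter GLAST, read 1.99, 1.80 and 1.35 on Neo arrays 2, 3 and 4, and 0.76, 0.66 and 1.11 on HDAC4 arrays 1, 3 and 4. Every value was at the floor, and the change was -0.87 ± 0.22 with a limma adjusted p of 0.361 and a permutation test (exact) giving 0.10, the lowest value possible with 3 arrays per group. Slc6a17, a vesicular transporter of neutral amino acids, read 3.66, 2.77, 2.50 and 2.62 on Neo arrays 1 to 4, and 2.37, 1.42, 2.46 and 1.82 on HDAC4 arrays 1 to 4. The gap between the groups was narrow, between Neo array 3 and HDAC4 array 3, and the change was -0.87 ± 0.31 with a limma adjusted p of 0.567. Floor values made up 1 of its 4 Neo and 3 of its 4 HDAC4 values.

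The transporters through which muscle takes up taurine and creatine had smaller changes. Slc6a6, the taurine transporter, averaged 0.93 ± 0.33 in Neo and 1.27 ± 0.09 in HDAC4 (SD, n = 4 each), and Slc6a8, the creatine transporter, 0.39 ± 0.44 and 0.32 ± 0.38. Neither passed the limma test, with adjusted p values of 0.771 and 0.973. Slc7a1, a cationic amino acid transporter, averaged -2.33 ± 0.58 and -1.96 ± 0.69. Slc38a7, a glutamine transporter of lysosomes, averaged 1.09 ± 0.16 and 0.84 ± 0.35. The 2 probes of Slc38a10 had opposite signs, 0.40 ± 0.44 and -0.10 ± 0.19 (SE). Slc1a5 and Slc43a3, far below the reference, had changes of 0.04 ± 0.18 and -0.15 ± 0.24.

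Nucleoside, nucleotide sugar and sugar phosphate transporters (families 29, 35 and 37) were measured by 28 probes of 21 genes. Here 21 probes were higher and 7 lower in HDAC4, and the median change was 0.17, while 49.4% of all probes were higher. The higher probes include 3 each of Slc29a1 and Slc35b2 and 2 each of Slc35a2, Slc35a4 and Slc35e2. Each lower probe was of a different gene. Probes of 1 gene are not independent, so by gene the split is less uneven than these counts. Without the arrays numbered 1, 20 were higher and 8 lower, with a median of 0.10. None passed the test. The groups did not overlap for 2 probes, both higher, where 2.07% of all probes were apart in that direction and 3.18% in the other. Slc29a1 was measured by 3 probes, all higher, by 0.39 ± 0.18, 0.66 ± 0.38 and 0.48 ± 0.24 (SE). Its probe M200006631 read 1.84, 2.25, 2.29 and 1.71 on Neo arrays 1 to 4, and 2.16, 2.60, 2.48 and 2.42 on HDAC4 arrays 1 to 4. Neo arrays 2 and 3 overlapped with HDAC4 array 1, and the limma adjusted p was 0.715. Probe M300003826 read 1.88, 2.59, 2.74 and 2.13 on Neo arrays 1 to 4, and 2.26, 3.08, 3.02 and 2.91 on HDAC4 arrays 1 to 4. On this probe and on M300003825, array 1 was the lowest of its group in both groups.

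Slc37a2, a sugar phosphate exchanger of the endoplasmic reticulum, read 0.11, 0.0043, -0.24 and -0.44 on Neo arrays 1 to 4, and 0.11, 0.53, 0.17 and 0.15 on HDAC4 arrays 1 to 4. The groups were barely apart between both arrays numbered 1, with a change of 0.38 ± 0.17 and a limma adjusted p of 0.705. Slc35b2 carries the sulphate donor PAPS into the Golgi. Its 3 probes gave 0.19, 0.13 and 0.19, and the groups of the second did not overlap. The UDP-galactose transporter Slc35a2 had changes of 0.24 and 0.31, Slc35a4 had 0.27 and 0.04, and Slc35e2 had 0.32 and 0.38.

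Mitochondrial carriers, all of family 25, made up the largest group with 32 probes of 30 genes. They split evenly into 16 higher and 16 lower, with a median change of -0.01. The carnitine-acylcarnitine carrier Slc25a20, which brings fatty acids to oxidation, averaged 1.44 ± 0.06 in Neo and 1.65 ± 0.19 in HDAC4 (SD, n = 4 each). The adenine nucleotide translocase of muscle, Slc25a4, averaged 1.30 ± 0.30 and 1.12 ± 0.02. The dicarboxylate carrier Slc25a10 read 0.14, 0.33, 0.48 and -0.11 on Neo arrays 1 to 4, and 0.60, 0.77, 0.50 and 0.43 on HDAC4 arrays 1 to 4. HDAC4 array 4 lay below the highest Neo array, and the change was 0.37 ± 0.16 with a limma adjusted p of 0.709. Slc25a32, a folate and flavin carrier, had non-overlapping groups, with Neo at -0.17 ± 0.09 and HDAC4 at 0.14 ± 0.32. Its change of 0.31 ± 0.17 included HDAC4 array 1 at 0.62, and without the arrays numbered 1 it was 0.17. Slc25a29, a carrier of basic amino acids, had a change of -0.58 ± 0.26, and 6 of its 8 values were at the floor. Slc25a26, the S-adenosylmethionine carrier, had probes of opposite sign (-0.19 and 0.17), and Slc25a33, a pyrimidine nucleotide carrier, had -0.22 and -0.10. Slc25a13 had a change of 0.13 ± 0.30.

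Carriers of monocarboxylates and organic ions (families 10, 16, 17 and 22) were measured by 12 probes of 11 genes, 6 higher and 6 lower. MCT4, Slc16a3, read -3.24, -3.72, -3.66 and -4.18 on Neo arrays 1 to 4, and -3.13, -3.78, -3.74 and -3.86 on HDAC4 arrays 1 to 4. All 8 arrays lay at -3.13 or lower, the groups overlapped, and the change was 0.08 ± 0.23. Slc16a6, another member of the monocarboxylate family, read -1.24, -0.14, 0.077 and 0.11 on Neo arrays 1 to 4, and -0.38, -0.68, -0.68 and -0.78 on HDAC4 arrays 1 to 4. Neo array 1 lay below all other arrays, while the other Neo arrays lay above all HDAC4 arrays. With all arrays the change was -0.33 ± 0.28 (limma adjusted p 0.895). Slc22a8, an organic anion transporter of kidney, averaged 1.36 ± 0.50 in Neo and 0.68 ± 0.52 in HDAC4 with all values at the floor. Slc22a17 had changes of -0.16 and -0.20.

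In the small families, both phosphate and both peptide transporters had negative changes and both sodium-calcium exchangers positive ones, which with 2 probes each says little. Without the arrays numbered 1 the peptide pair split, with Slc15a4, a lysosomal relative of Slc15a3, moving from -0.075 to 0.052. The sodium-phosphate cotransporter Slc20a2 read 1.02, 0.87, 0.57 and 0.64 on Neo arrays 1 to 4, and 0.50, 0.39, 0.49 and 0.21 on HDAC4 arrays 1 to 4. Its groups did not overlap, with a change of -0.38 ± 0.15 and a limma adjusted p of 0.631. Its paralogue Slc20a1, at -0.14 ± 0.32 in Neo and -0.64 ± 0.40 in HDAC4 (SD, n = 4 each), overlapped through HDAC4 array 1 (-0.08). The change of Slc20a1 was -0.50 ± 0.23 (SE), with a limma adjusted p of 0.729. Without the arrays numbered 1 this change was -0.54, with a limma adjusted p of 0.104. All HDAC4 values then lay below all Neo values, as for 14.1% of all probes. Slc15a3 read -3.29, -3.43, -3.28 and -2.70 on Neo arrays 1 to 4, and -3.75, -4.04 and -3.64 on HDAC4 arrays 1, 3 and 4, and the HDAC4 values lay below all Neo values. Its change was -0.64 ± 0.21 with a limma adjusted p of 0.526. Slc8b1, the sodium-calcium exchanger of the inner mitochondrial membrane, read 1.19, 1.01, 1.18 and 1.18 on Neo arrays 1 to 4, and 0.44, 2.42, 1.80 and 1.99 on HDAC4 arrays 1 to 4. It is described here because of its value without the arrays numbered 1 and was chosen after that value was seen. HDAC4 array 1 lay below all Neo arrays and the other HDAC4 arrays above them, and the change was 0.52 ± 0.36 with a limma adjusted p of 0.870.

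Vitamin, folate, lipid and choline carriers (families 5, 19, 23, 27, 33, 44 and 46) were measured by 13 probes, 5 higher and 8 lower. The grouping is by family number, so it also holds Slc5a5, the sodium-iodide symporter. The reduced folate carrier Slc19a1 had non-overlapping groups, with Neo at -0.37 ± 0.10 and HDAC4 at -0.18 ± 0.13 (SD, n = 4 each) and a change of 0.19 ± 0.13 (SE). Without the arrays numbered 1 that change was 0.08. The choline transporter-like Slc44a4 averaged 1.75 ± 0.80 (n = 4) and 1.28 ± 0.69 (n = 3), a change of -0.47 that was 0.0070 without those arrays. Of family 66, which holds lysosomal amino acid exporters, Slc66a1 had changes of -0.09 and 0.02 (0.48 and -0.12 without those arrays) and Slc66a2 of 0.18.

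**Figure D3:**
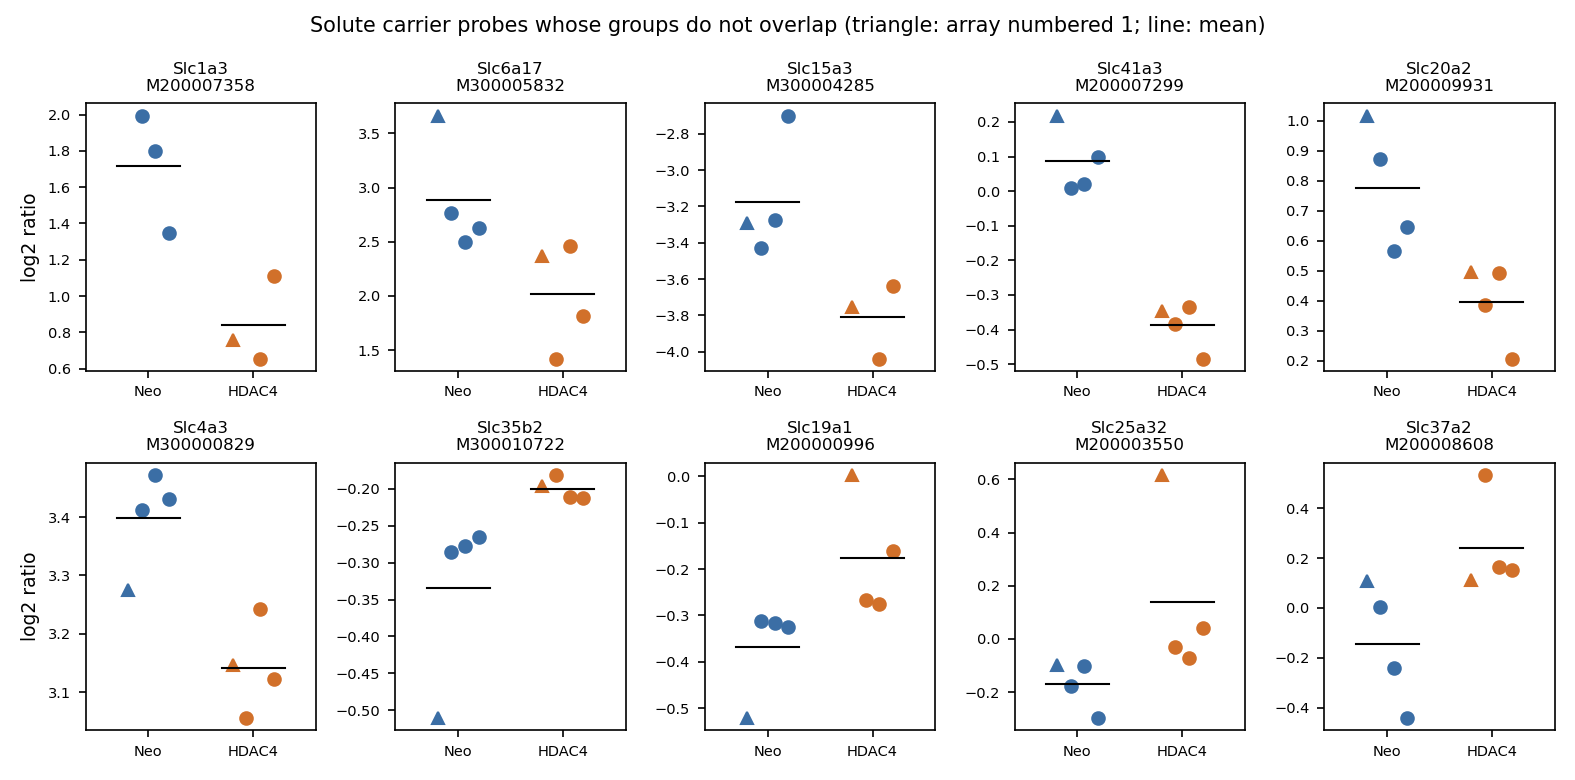
Each panel shows the log2 ratio (y axis) of 1 of the 10 member probes whose Neo (blue) and HDAC4 (orange) values do not overlap, with 1 point per array, triangles for the arrays numbered 1 and a line at each group mean. The changes run from -0.87 (Slc1a3, Slc6a17) to 0.38 (Slc37a2), and the y axes differ between panels.

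Probes of the same gene give a check on single values, although they share their RNA. Of the 17 genes with at least 2 member probes, 11 had changes of the same sign on all of them (7 all higher, 4 all lower). The ratio to the reference was more alike, with all probe means on the same side of 0 for 15 genes. The largest spread of changes between probes of 1 gene was 0.88, in Slc4a3.

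The arrays numbered 1 differed from the rest in many members. Compared with the other arrays, with the group kept in the limma model, 21 members were higher on the arrays numbered 1 at an adjusted p under 0.05 (12.7%, against 10.3% of all probes) and 12 were lower (7.27%, against 11.2%). The strongest falls on these arrays were Slc5a5 (-1.48), Slc38a10 (-1.38 on 1 of its probes), Slc7a1 (-1.21), Slc29a1 (-1.21 on 1 of its probes) and Slc43a2 (-1.16), a transporter of large neutral amino acids. Higher values were led by Slc25a25 (0.98), a mitochondrial ATP-magnesium carrier, Slc23a2 (0.97), a vitamin C transporter, and Slc9a3r2 (0.89 and 0.88 on 2 of its 3 probes). The third Slc9a3r2 probe went the other way (-0.51) and did not pass the threshold. Each group holds 1 of these arrays.

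Without both arrays numbered 1, 323 of all probes (1.93%) passed the limma test and 2 members did. Slc16a6 was lower in HDAC4 by a change of -0.73 ± 0.11 (SE, 3 against 3 arrays), with a limma adjusted p of 0.0304. Slc8b1 was higher by 0.94 ± 0.17, with a limma adjusted p of 0.0482. The groups then did not overlap for 23 members higher in HDAC4 (13.9%, against 12.6% of all probes) and for 34 lower (20.6%, against 14.1%). In all, 76 members were higher and 89 lower, with a median change of -0.052, against -0.0090 over all probes. Other values without these arrays were -0.44 for Slc41a3 (adjusted p 0.0785), -1.08 for the Slc4a3 probe at the floor (0.0775), -0.70 for Slc40a1 (0.0781) and 0.48 for Slc6a6 (0.0649), none past the limma threshold. The 3 Slc29a1 probes gave 0.41, 0.68 and 0.52. Slc39a4 gave 0.81 ± 0.30, with an adjusted p of 0.234. Of the larger groups, the ion transport group shifted most, to 6 probes higher and 17 lower with a median of -0.25. These are counts of probes, with more than 1 each for Slc4a3, Slc9a3r2, Slc12a2 and Slc4a8. By family number the group also holds the adaptor and scaffold genes Slc4a1ap, Slc9a3r1 and Slc9a3r2. Amino acid transporters came to 7 higher and 14 lower with a median of -0.16, metal transporters to 10 and 14 (-0.077) and mitochondrial carriers to 13 and 19 (-0.050).

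**Figure D4:**
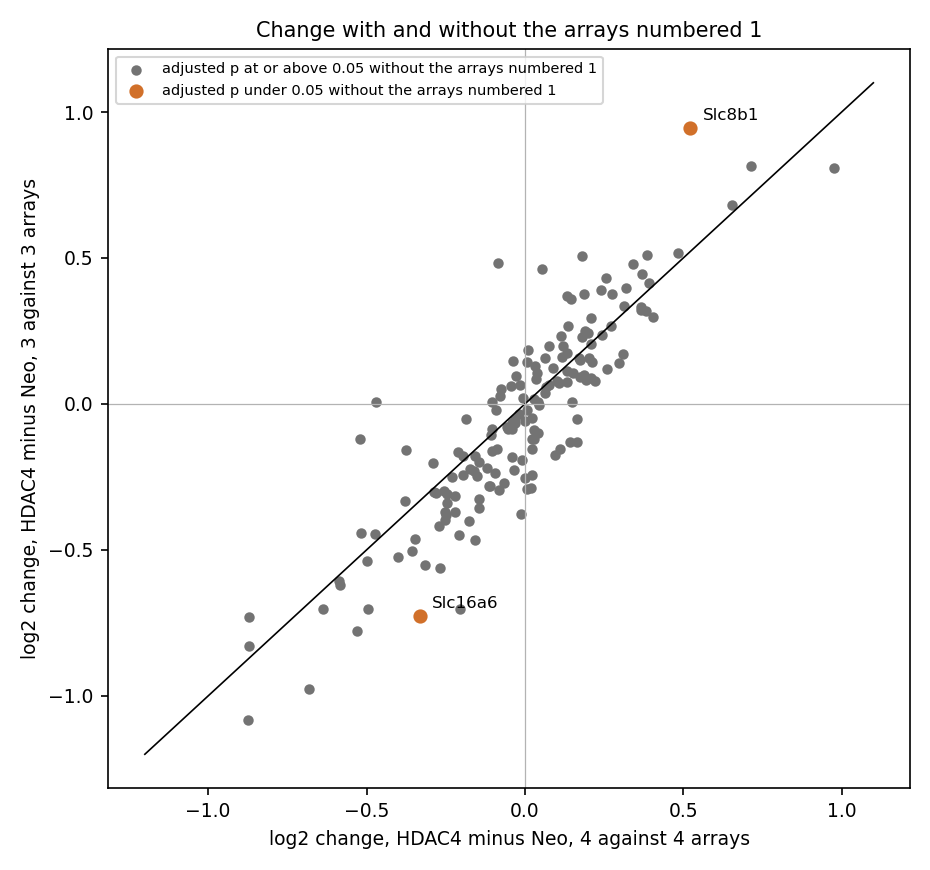
Each point is 1 of the 165 member probes, with its log2 change, HDAC4 minus Neo, over 4 against 4 arrays on the x axis and over 3 against 3 arrays, without those numbered 1, on the y axis; the diagonal marks equal values. The orange points, Slc16a6 (-0.73) and Slc8b1 (0.94), passed the limma threshold without those arrays, and both lie farther from 0 than with all arrays.

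Slc probes outside the rule had values less often on the HDAC4 arrays, as the array's probes did in general (17014 to 18521 values per HDAC4 array, 19248 to 22193 per Neo array). At least 3 Neo values and at most 1 HDAC4 value were found for 15 of 339 Slc probes (4.42%), close to the 4.72% of all probes, and the opposite pattern for 0 Slc probes and 31 of all probes. Slc17a9, the vesicular nucleotide transporter, had 4 Neo values and 0 HDAC4 values. Slc7a11, the cystine-glutamate exchanger, had 4 and 1, and its Neo mean was -0.80. The sources used here do not give the reason for a missing value, so no fold is drawn from these. Just outside the rule lay 11 probes with 2 values in one group and 2 or more in the other. Slc16a9 with 4 Neo values (mean -0.56) and 2 HDAC4 values (mean -0.13), and Slc26a6 with 0.97 and 0.49, are examples. Just inside it were 21 members with 3 values in one or both groups, Slc1a3 and Slc15a3 among them.

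Genes that work with solute carriers were read from a list of 39 genes with 27 probes tested. None passed the limma test, 0 were higher and 1 lower at an unadjusted p under 0.05, and 9 were higher and 18 lower in all, with a median change of -0.072. The 7 probes of sodium pump genes were all lower, with a median of -0.45 (5 of 7 lower without the arrays numbered 1), with the smallest p for the pump subunit Atp1b1 at -0.56 ± 0.19 (SE, limma adjusted p 0.530) and larger changes for the pump regulators Fxyd5 (-0.70) and Fxyd1 (-0.67 on 1 probe). Of 8 probes for the amino acid response, which raises amino acid transporters when supply is short, 7 were lower, with a median of -0.11. The chaperone Bsg, which takes monocarboxylate transporters to the cell surface, had a change of -0.0095 ± 0.17. Without the arrays numbered 1, 4 of the 27 passed the limma test, against 1.93% of all probes: Atp1b1 (-0.69, adjusted p 0.0366), the amino acid response genes Chac1 (-0.63, 0.0344) and Trib3 (-0.65, 0.0307), and the brain-type creatine kinase Ckb (0.95, 0.0473).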

How the data were processed

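For each of 8 arrays the authors deposited log2 ratios, 1 per probe, with Cy5 for the cells and Cy3 for the reference per the labels. Background correction, normalization, filters, software and the genome build of the array design are not stated in any source used here. Probes were named from the platform annotation, and 3 probes naming an Slc gene together with another gene and 14 Slc2a probes were left out. Each array was centred on its median. Probes with at least 3 values in each group were fitted one by one in R 4.3.3 by limma 3.58.1, using lmFit and eBayes for HDAC4 against Neo without a covariate, and p-values were adjusted over all 16748 probes by the Benjamini-Hochberg method at a threshold of 0.05. A two-sided exact permutation test was added for single probes; with 4 against 4 arrays it cannot go below 0.0286. The code was tested on simulated data. The number of arrays limits the precision.

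Members were grouped by family number. Named probes were those past the threshold, those with non-overlapping groups (up to 10 each way), the smallest p in each family of at least 3 probes, the 5 highest and 5 lowest ratios, genes with at least 2 member probes, and those past the threshold with replicate 1 as a batch (none). Other genes are named as examples chosen after their values were seen. The members and lists were chosen with earlier results of these data known. Alternatives changed the centring, scaling, missing-value and floor filters, probe averaging, variance prior, block, batch and arrays used. Figures were drawn with matplotlib 3.10.9.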

Additional observations from a re-analysis of the deposited data

Results flagged for a closer look

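Among 110 groups of 4 arrays examined, 7 had 1 array that stood apart from the other 3 by more than Dixon's critical share (95% level) of the group's range. Chance marks about 1 in 20 such groups. On the arrays numbered 1 this was Slc19a1 in Neo (-0.52, others -0.33 to -0.31), the second Slc35b2 probe in Neo (-0.51, others -0.29 to -0.26), Slc25a32 in HDAC4 (0.62, others -0.073 to 0.042) and the second Slc41a3 probe in HDAC4 (-0.69, others -0.077 to 0.035). On the arrays numbered 2 it was Slc8b1 in Neo (1.01, others 1.18 to 1.19), Slc9a2 in Neo (0.26, others 1.60 to 1.75) and Slc37a2 in HDAC4 (0.53, others 0.11 to 0.17).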

How the results depend on the processing

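The arrays numbered 1 bore most on the results. Leaving out both gave 2 Slc probes past the limma threshold (323 of all probes), a median change of -0.052, 57 probes with non-overlapping groups (34.5%, against 26.7% of all probes) and 4 partner probes past the threshold. Leaving out 1 array at a time gave 0 Slc and 0 partner probes past the threshold throughout, a median of -0.0621 (without HDAC4 replicate 1) to 0.019, and 12 to 40 non-overlapping probes (25 without Neo replicate 1, 15.2% against 12.8% of all probes; 16 without Neo replicate 4, 9.70% against 7.98%; 40 without HDAC4 replicate 1, 24.2% against 2845 of the 16748 probes). Non-overlap is easier to reach with fewer arrays. No centring, quantile normalization, other value minimums, floor probes left out, gene means, a trended prior, and floor values shifted by the deviation of all-floor probes (an alternative chosen after seeing the data) each gave 0 Slc probes past the threshold, with smallest adjusted p values of 0.281 to 0.586. Of all probes, 0 to 25 passed in these settings, with 0 when floor probes were left out and 4 after the floor shift.

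The replicate numbers were not taken to pair the arrays. Same-numbered arrays of both groups correlated in their deviations from the group means at 0.52, 0.29, 0.19 and 0.097, the last under the limit of 0.1, and HDAC4 replicate 4 correlated best with Neo replicate 2 (0.24). With a replicate block, 0 Slc probes passed (9 of all, smallest adjusted p among Slc probes 0.139). With replicate 1 as a batch, 0 passed (108 of all, 0.0755). The block turned the sign of 1 Slc12a2 probe (0.040) and 1 Slc66a1 probe (0.014).

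Of 1036 values of 58 named probes under the alternatives, 988 kept direction and side of the threshold, 2 passed it (Slc16a6 and Slc8b1) and 46 turned sign, over 13 probes whose change with all arrays was at most 0.47 in size; the cause was not tested. Without both arrays numbered 1, signs turned for Slc4a3 probe M300000828 (-0.25), Slc11a2 (-0.089), Slc12a2 (-0.24), Slc41a3 probe M300006995 (0.096), Slc44a4 (0.0070) and Slc66a1 (0.48 and -0.12). Quantile normalization turned Slc11a2 (-0.027), and the floor shift turned Slc22a17 (0.28) and Slc66a1 (0.43). Over single arrays left out, the changes ranged from -0.15 to 0.23 and -0.15 to 0.28 for Slc11a2, -0.27 to 0.20 and -0.32 to 0.26 for Slc12a2, -0.32 to 0.29 and -0.45 to 0.59 for Slc66a1, -0.18 to 0.14 for Slc4a3, -0.16 to 0.14 for Slc41a3, -0.067 to 0.16 for Slc35a4, -0.10 to 0.19 for Slc4a8 and -0.27 to 0.00333 for Slc38a10. Ratios to the reference stayed within their spread in 156 of 156 cases.

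Signal over background is unknown, since the deposited values are ratios.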
